A study of Mus musculus with 9 samples.

Results

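Complex I (NADH:ubiquinone oxidoreductase) was followed here at the RNA level in the right ventricle through the genes whose symbol begins with Nduf, the nuclear genes for its subunits and for a set of its assembly factors. A gene was included if the annotation of the array gave it a probe set of that gene alone, and the brightest was used where there were several. The annotation held 45 Nduf symbols, of which 43 met this rule, among 18820 genes measured in the same way. The 2 left out were Ndufa13, which shared its probe sets with Tssk6, and the pseudogene Ndufs5-ps, which shared its probe set with Ndufs5. By symbol, the 43 genes comprised 14 Ndufa (Ndufab1 included), 10 Ndufb, 2 Ndufc, 7 Ndufs and 3 Ndufv genes and 7 Ndufaf assembly factors. The subunits encoded by the mitochondrial genome were not analysed here.

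The series asked how monocrotaline (MCT), a plant alkaloid that injures the lung vessels and loads the right ventricle (RV), changed RV gene expression in mice, and whether a nutritional intervention (NI) altered that response. RNA from the RV of 9 female C57BL/6 mice was hybridised to 1 whole-transcript array per mouse, with 3 mice in each of 3 groups. The mice were 8 weeks old on arrival, and weekly subcutaneous injections ran from the age of 10 weeks for 8 weeks. By the labels, every group started its diet 2 weeks before the first injection. Sham mice (620, 624 and 625) were injected with saline and ate the standard AIN-93M diet. MCT mice (640, 641 and 644) were given 600 mg/kg per injection on the same diet. MCT+NI mice (615, 617 and 619) were given the same dose of MCT and ate the NI diet, matched in calories, which held more protein and leucine as well as fish oil and oligosaccharides. No group combined saline with the intervention diet, so the effect of the diet in mice without MCT was not measured. The mice chosen for the arrays were matched for severity of disease, according to the methods of the study, so the arrays cover a chosen subset of each arm.

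Complex I takes electrons from NADH, passes them through a flavin and a chain of iron-sulfur clusters to ubiquinone, and pumps protons across the inner mitochondrial membrane. It is L-shaped: a matrix arm holds the NADH-oxidising (N) module and the quinone-reducing (Q) module, and a membrane arm holds the proton pumps. Core subunits carry the catalysis, accessory subunits surround them, and assembly factors build the complex without remaining in it, and the heart, with its dense mitochondria, depends on it for most of its ATP.

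The deposited values were log2 intensities, so a difference of 1 is a doubling. Levels are not compared between genes, since probe sets differ in brightness. All 43 genes lay at or above the median gene of the array (5.42), so a filter on dim genes removed none of them. A gene was called different at an adjusted p under 0.05 in limma's moderated test over all 18820 genes, and the percentage of all genes that met a criterion is given beside the first count of members that met it.

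The arrays had nearly equal medians over all probe sets (4.77 to 4.79). Over the 18820 genes tested the medians were 5.36 to 5.41 in sham, 5.44 to 5.46 in MCT and 5.40 to 5.46 in MCT+NI mice, a gap between sham and MCT about as large as the differences of the Nduf genes, and values with arrays centred on it are given below. The 12 cardiomyocyte markers averaged 12.35 to 12.36 in sham, 12.29 to 12.33 in MCT and 12.33 in MCT+NI mice, whereas the markers of skeletal muscle (4 of 4), lymphocytes (4 of 4) and fat (5 of 6) lay under the median gene. The mean of 6 atrial markers set some mice apart from their group. It was 10.17 to 11.05 in the sham mice and 10.69 in MCT mouse 644, against 5.13 and 5.50 in MCT mice 640 and 641, and it was 9.16 in MCT+NI mouse 615 against 6.01 and 5.24 in mice 617 and 619. These levels followed the groups in part, with MCT mouse 644 at the sham level, and the part of atrial transcripts in the differences between groups was not tested beyond the values given without mice 644 and 615 and with the atrial mean as a covariate.

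The promoters of 4 members are shown as examples. Ndufa4 and Ndufv2 were the 2 members called lower after MCT. Ndufs3 is a core subunit that carries a match to a classical regulator of respiratory genes, and Ndufb4 carries the most matches. Whether such matches go with the differences between groups was not tested. Each is the 250 bases before the start of transcription, from RefSeq (build GRCm38.p6), 5′ to 3′ on the minus strand of the chromosome, where all 4 genes lie: chr6:11907451-11907700, chr17:66101560-66101809, chr2:90904722-90904971 and chr16:37654369-37654618. Capitals mark matches on either strand to GCGCANGCG, bound by nuclear respiratory factor 1 (NRF1), to CCGGAAG, bound by ETS factors such as GABP, or to TNAAGGTCA, bound by estrogen-related receptors.
Ndufa4: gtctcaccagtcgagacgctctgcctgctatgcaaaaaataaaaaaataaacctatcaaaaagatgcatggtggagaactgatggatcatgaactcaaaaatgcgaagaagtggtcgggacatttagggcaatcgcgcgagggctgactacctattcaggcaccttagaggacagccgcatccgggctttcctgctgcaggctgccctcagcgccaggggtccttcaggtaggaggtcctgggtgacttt
Ndufv2: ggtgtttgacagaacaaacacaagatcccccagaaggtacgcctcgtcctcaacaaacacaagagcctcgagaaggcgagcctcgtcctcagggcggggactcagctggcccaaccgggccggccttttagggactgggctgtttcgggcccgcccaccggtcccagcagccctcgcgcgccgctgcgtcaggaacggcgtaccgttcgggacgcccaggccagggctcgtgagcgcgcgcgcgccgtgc
Ndufs3: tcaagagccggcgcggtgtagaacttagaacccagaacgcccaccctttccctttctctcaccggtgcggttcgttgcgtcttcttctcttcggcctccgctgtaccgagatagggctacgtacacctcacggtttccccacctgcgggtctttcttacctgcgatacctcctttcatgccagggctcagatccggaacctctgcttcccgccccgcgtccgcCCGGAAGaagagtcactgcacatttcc
Ndufb4: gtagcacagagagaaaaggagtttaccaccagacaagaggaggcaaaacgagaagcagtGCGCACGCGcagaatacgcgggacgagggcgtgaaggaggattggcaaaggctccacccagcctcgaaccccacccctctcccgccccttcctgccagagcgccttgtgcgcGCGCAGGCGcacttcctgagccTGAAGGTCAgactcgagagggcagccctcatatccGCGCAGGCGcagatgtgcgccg

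The windows of Ndufa4 and Ndufv2 held none of the 3 motifs. In the bases shown, Ndufs3 had 1 ETS match, whose first base lay 27 bases before the start. Ndufb4 had 3 NRF1 matches, beginning 191, 79 and 22 bases before the start, and 1 match of the estrogen-related receptors beginning 57 bases before it. A RefSeq window running from 250 bases before to 50 after the start was given for 38 of the 43 members, and the windows of 14739 genes on the array served as the reference. An NRF1 match was found in 10 of the 38 members (26.3%) and in 10.7% of all windows. The NRF1 motif itself holds CG pairs, and member windows had a median of 20 CG pairs, against 15 over all genes. The part of this in the NRF1 share was not tested. ETS matches were found in 5 members (13.2%), against 13.7% of all windows, and a match of the estrogen-related receptors in 1 member (2.6%), against 1.2%. In this longer window Ndufs3 had 2 ETS matches. None of the 38 members had both an NRF1 and an ETS match. No marked matches overlapped, and these matches are letters in a window, not bound sites.

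Of the 43 genes, 2 were lower and 1 was higher in MCT than in sham RV at an adjusted p under 0.05 in limma, where 1.61% of all genes were lower and 4.65% higher. The higher gene, Ndufa4l2, and 1 of the lower genes, Ndufa4, carry Nduf symbols but are not subunits of complex I. Ndufv2, an iron-sulfur subunit of the N module, was the only subunit called. Most other members lay lower without passing that test. The median difference over the 43 genes was -0.06 on the log2 scale, against -0.02 over all genes and -0.01 over the 9410 genes at or above the median gene, and 38 genes lay below 0 and 5 above. At an unadjusted p under 0.05, 10 members were lower, where 9.14% of all genes were, and 1 was higher, where 10.6% of all genes were. The 3 MCT mice lay entirely below the 3 sham mice for 10 members, against 10.2% of all genes, and entirely above for 1, against 11.7%. With each array centred on its median over the genes, the median of all genes itself fell to -0.08 and that of the members to -0.13, and 6 members were called lower. Centring also raised the number of all genes called in either direction from 1179 to 1470. Without the intensity trend, with quantile normalization repeated or with the atrial mean as a covariate, 0 members were called lower. With that covariate the member median was -0.08, and 11 members were lower at an unadjusted p under 0.05. Over all genes, 506 were then called in either direction, against 1179 without it. Without sham mouse 620 the 10 members at an unadjusted p under 0.05 became 6.

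Markers of other cell types moved as well. The mean of 6 endothelium markers was 8.81 to 9.03 in sham and 9.12 to 9.17 in MCT mice, that of 6 fibroblast markers 8.30 to 8.53 and 8.69 to 8.82, and that of 8 macrophage markers 7.27 to 7.55 and 7.45 to 7.82. Of these, 2, 2 and 3 genes were called higher after MCT, and 1 macrophage marker lower. In each of the 3 lists 2 genes lay below 0, among them Tek of the endothelium at -0.47 and Pdgfra of fibroblasts at -0.19, neither of which was called in MCT against sham. The lowest macrophage marker stood at -1.2. In addition, 1 of the 12 cardiomyocyte markers, Ryr2, was called lower (-0.17, limma adjusted p = 0.0234). The part of these markers in the lower values of the Nduf genes was not tested.

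By mouse, the median over the members, as a log2 difference from the sham mean of each gene, was 0.03, -0.03 and -0.00 in sham mice 620, 624 and 625. It was -0.08, -0.03 and -0.05 in MCT mice 640, 641 and 644, and -0.02, 0.05 and 0.01 in MCT+NI mice 615, 617 and 619. The lowest value belonged to MCT mouse 640 and the highest to MCT+NI mouse 617, and at the mouse level MCT and sham touched, with sham mouse 624 at -0.029 and MCT mouse 641 at -0.028. The SD of this median within groups was 0.031. The median of -0.063 given for MCT against sham is another measure, taken over the differences of single genes. MCT mouse 644, whose atrial markers were as high as in sham mice, lay between the other MCT mice.

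**Figure D1:**
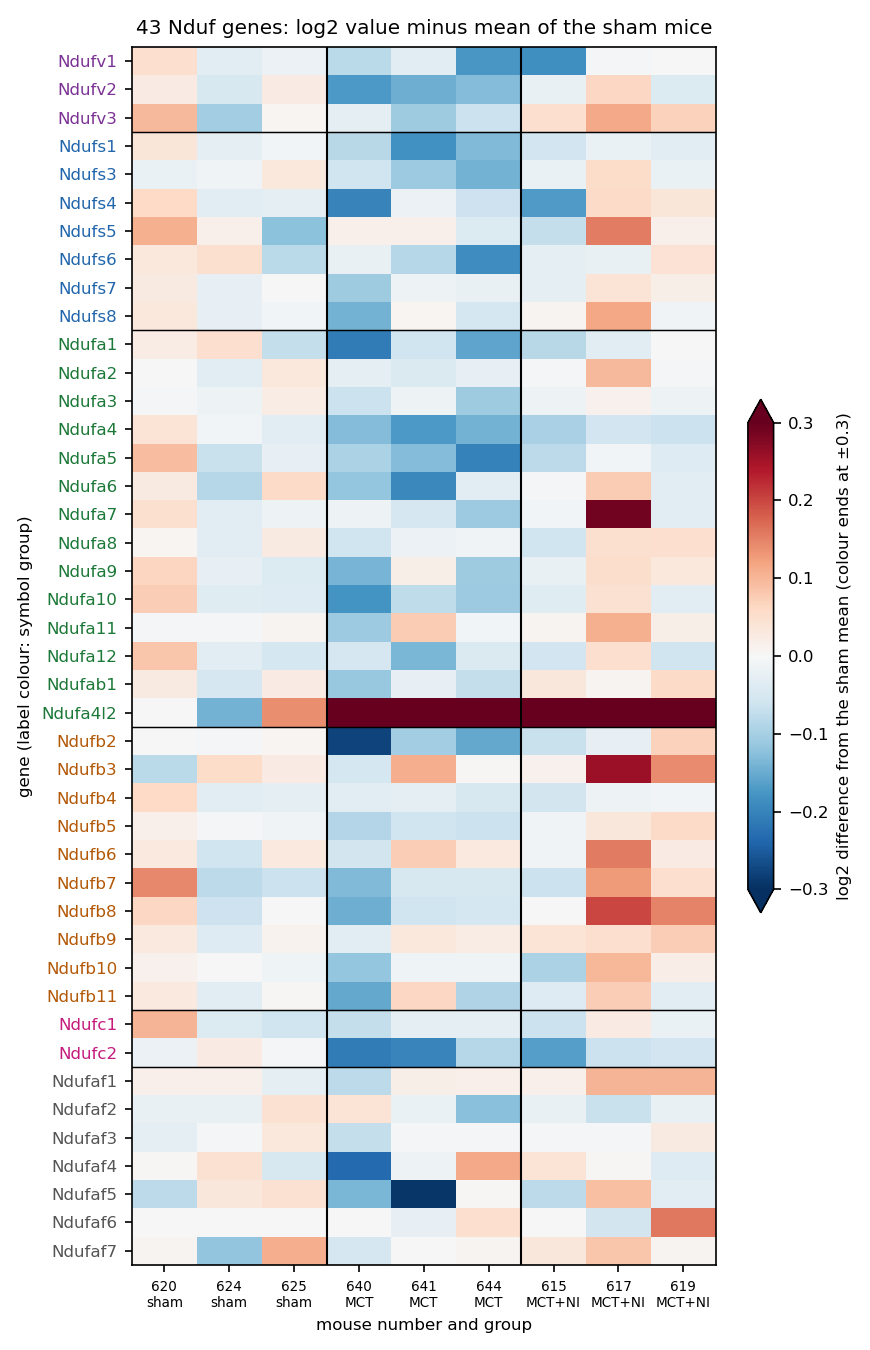
Each row is 1 of the 43 Nduf genes and each column 1 mouse, and the colour is the log2 value minus the mean of the 3 sham mice (blue lower, red higher, colour ends at 0.3 in either direction). MCT mice are mostly blue for subunit genes (39, 33 and 34 of the 43 genes below the sham mean in mice 640, 641 and 644), MCT+NI mouse 617 is mostly red (31 above), and Ndufa4l2 is red in all 6 mice given MCT.

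Ndufv2 belongs to the N module, where NADH is oxidised. Its log2 level was 10.64, 10.57 and 10.64 in sham mice 620, 624 and 625, and 10.44, 10.47 and 10.48 in MCT mice 640, 641 and 644. It was 10.59, 10.68 and 10.57 in MCT+NI mice 615, 617 and 619. All MCT mice lay below all others, and the MCT+NI mice covered the range of the sham mice. After MCT Ndufv2 fell by 0.15 on the log2 scale (SE 0.037, 0.902-fold, limma adjusted p = 0.0485). This call sat at the threshold and was kept in 7 of 22 alternative analyses. Those 7 include setting aside Ndufa4 and Ndufa4l2 and keeping members at or above the median gene, which only recounted the same fit. Over the 22, the limma adjusted p ran from 0.0295 to 0.222 and the difference from -0.21 to -0.14. Leaving out any 1 of the sham or MCT mice, or MCT+NI mouse 615 or 619, ended the call.

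The other core subunits of the N module are Ndufs1, the largest, which carries iron-sulfur clusters, and Ndufv1, which binds NADH and the flavin. Ndufs1 stood at 10.54, 10.48 and 10.50 in sham, 10.42, 10.32 and 10.37 in MCT and 10.45, 10.48 and 10.47 in MCT+NI mice, with the MCT mice below both other groups. Its difference after MCT was -0.13 (SE 0.0345, limma adjusted p = 0.0584). Ndufv1 stood at 10.57, 10.49 and 10.51 in sham, 10.44, 10.49 and 10.35 in MCT and 10.34, 10.52 and 10.52 in MCT+NI mice. Its MCT values lay at or under the lowest sham value and MCT+NI mouse 615 was the lowest of all, giving -0.10 after MCT (SE 0.0574, limma adjusted p = 0.408).

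In the Q module, Ndufs3, Ndufs7 and Ndufs8 are the core subunits measured, and Ndufs7 and Ndufs8 carry the clusters next to ubiquinone. Ndufs3 was 10.94, 10.95 and 10.99 in sham, 10.90, 10.85 and 10.82 in MCT and 10.94, 11.02 and 10.94 in MCT+NI mice. The MCT mice were again the lowest 3 of the 9, and the difference was -0.10 (SE 0.0343, limma adjusted p = 0.13). Ndufs7 was 11.74, 11.69 and 11.71 in sham, 11.61, 11.70 and 11.69 in MCT and 11.69, 11.76 and 11.73 in MCT+NI mice. Ndufs8 was 11.11, 11.05 and 11.07 in sham, 10.94, 11.08 and 11.03 in MCT and 11.09, 11.19 and 11.07 in MCT+NI mice. For both, only MCT mouse 640 stood clearly low and the groups overlapped (-0.05 and -0.06 after MCT, limma adjusted p = 0.493 and 0.519).

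The 12 genes of the matrix arm (N and Q modules, core and accessory) all had differences below 0 after MCT, with a median of -0.10 and a range of -0.15 to -0.03, and 4 of the 12 passed an unadjusted p of 0.05 on the lower side, against 9.14% of all genes. The 18 genes of the membrane arm had a median of -0.05, 15 lay below 0, and 5 of the 18 passed on the lower side. Within it, Ndufb2 had the largest negative difference of the family. Its values were 8.82, 8.81 and 8.82 in sham, 8.54, 8.72 and 8.66 in MCT and 8.75, 8.79 and 8.89 in MCT+NI mice, which put every MCT mouse below every other mouse. The difference was -0.18 (SE 0.0535, limma adjusted p = 0.0947). Ndufc2, of the proximal membrane arm, was 10.36, 10.40 and 10.37 in sham, 10.17, 10.18 and 10.29 in MCT and 10.21, 10.31 and 10.32 in MCT+NI mice. It lay below sham in all 6 mice given MCT, with a difference of -0.16 in MCT (SE 0.0439, limma adjusted p = 0.0652). Without mice 644 and 615 it was the member called lower in place of Ndufa4 and Ndufv2.

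By symbol group, the median difference after MCT was -0.07 for Ndufa, -0.05 for Ndufb, -0.10 for Ndufc, -0.09 for Ndufs and -0.10 for Ndufv genes. The 7 Ndufaf assembly factors had a median of -0.03 and a range of -0.14 to 0.01, and none of them reached an unadjusted p of 0.05 in any of the 3 comparisons. Ndufaf3, which works with Ndufaf4 on the Q module, is an example: -0.03 after MCT, with a 95% interval of -0.12 to 0.06. The widest of these intervals that leaned low was that of Ndufaf5, which hydroxylates Ndufs7 (-0.14, 95% interval -0.34 to 0.06). Whether the symbol groups differed from each other was not tested.

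**Figure D2:**
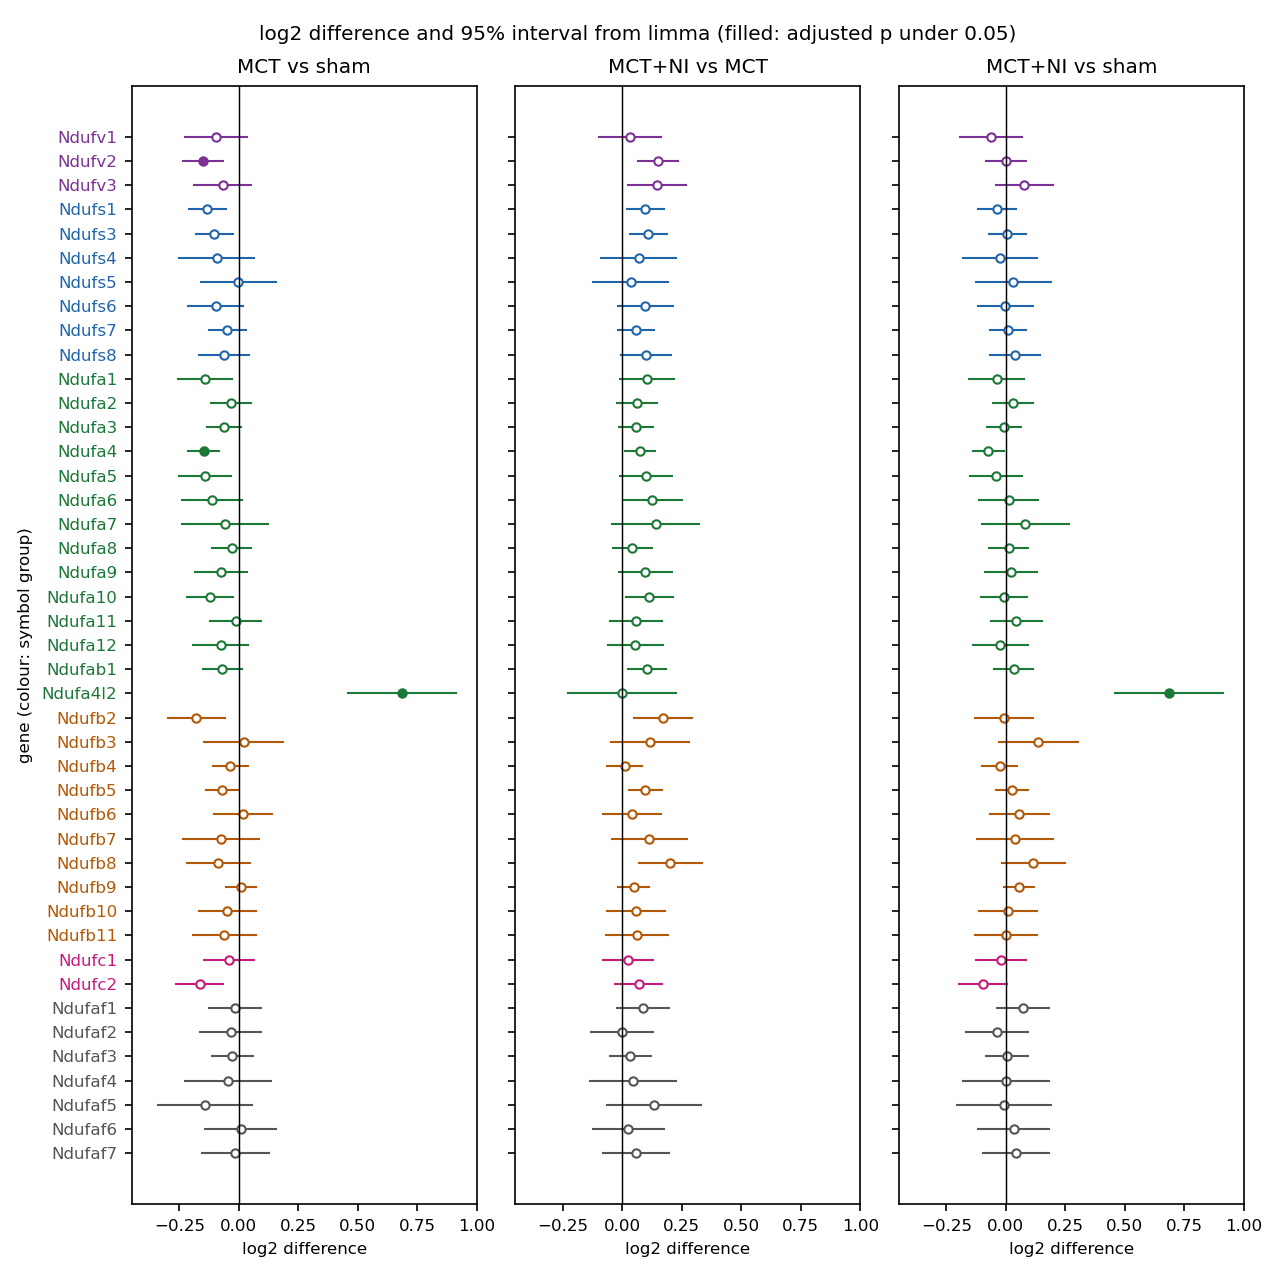
Points are log2 differences of the 43 genes in each of the 3 comparisons and lines their 95% intervals from limma, coloured by symbol group, with filled points at an adjusted p under 0.05. Most points lie left of 0 for MCT against sham (38 of 43) and right of 0 for MCT+NI against MCT (41 of 43), and Ndufa4l2 lies apart at 0.69 in both comparisons with sham.

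Ndufa4 and Ndufa4l2 went opposite ways. Ndufa4, first taken for a complex I subunit and now assigned to cytochrome c oxidase (complex IV), was 11.98, 11.93 and 11.90 in sham, 11.81, 11.76 and 11.79 in MCT and 11.84, 11.88 and 11.87 in MCT+NI mice. The 3 groups did not overlap, with MCT+NI between the others. After MCT it fell by 0.15 (SE 0.0284, 0.903-fold, limma adjusted p = 0.0162). The call was kept in 16 of 21 alternatives, among them members at or above the median gene, which only recounted the same fit. It was lost without MCT mouse 641 (-0.14, limma adjusted p = 0.0632) and without mice 644 and 615 (-0.15, limma adjusted p = 0.0535), and also without the intensity trend, with quantile normalization repeated and with the atrial mean as a covariate.

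Ndufa4l2, a homologue that is induced by hypoxia and is abundant in pericytes, was 7.06, 6.92 and 7.20 in sham and 7.75, 7.94 and 7.55 in MCT mice. It was 7.76, 7.75 and 7.73 in MCT+NI mice. All 6 mice given MCT lay above all sham mice, and the MCT+NI values lay inside the wider range of the MCT mice. The gene rose by 0.69 in MCT (SE 0.0999, 1.61-fold, 95% interval 0.46 to 0.91, limma adjusted p = 0.00428). It rose by the same 0.69 in MCT+NI against sham (limma adjusted p = 0.00446). Both calls were kept in 20 of 21 alternatives, among them members at or above the median gene, which only recounted the same fit. They were lost with the atrial mean as a covariate (0.56 and 0.55, limma adjusted p = 0.0527 and 0.0734). Between the 2 MCT groups the difference was 0.00, with a 95% interval of -0.23 to 0.23.

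Cox4i2 is the isoform of complex IV subunit 4 that is also known from lung, pericytes and hypoxia. Among the 14 listed complex IV genes, which did not include Ndufa4, it was the only one called. It was 5.47, 5.31 and 5.66 in sham, 6.11, 6.27 and 6.02 in MCT and 6.05, 6.22 and 6.26 in MCT+NI mice, with no overlap between sham and the rest. It rose by 0.65 in MCT (SE 0.107, limma adjusted p = 0.00758). Most markers of smooth muscle and pericytes were also higher: the mean of 7 was 8.25 to 8.30 in sham, 8.52 to 8.78 in MCT and 8.58 to 8.68 in MCT+NI mice, and 4 of the 7 were called higher after MCT. Among them Rgs5 rose by 0.68 (limma adjusted p = 0.00776), Pdgfrb by 0.47 (limma adjusted p = 0.00318) and Kcnj8 by 0.47 (limma adjusted p = 0.00932), whereas Cnn1, the 1 marker of the 7 below 0, stood at -0.21. None of the 7 markers lay under the median gene, and their part in the rise of Ndufa4l2 was not tested. In whole tissue, more cells of a type and more RNA per cell cannot be told apart, nor can fewer cells and less RNA.

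**Figure D3:**
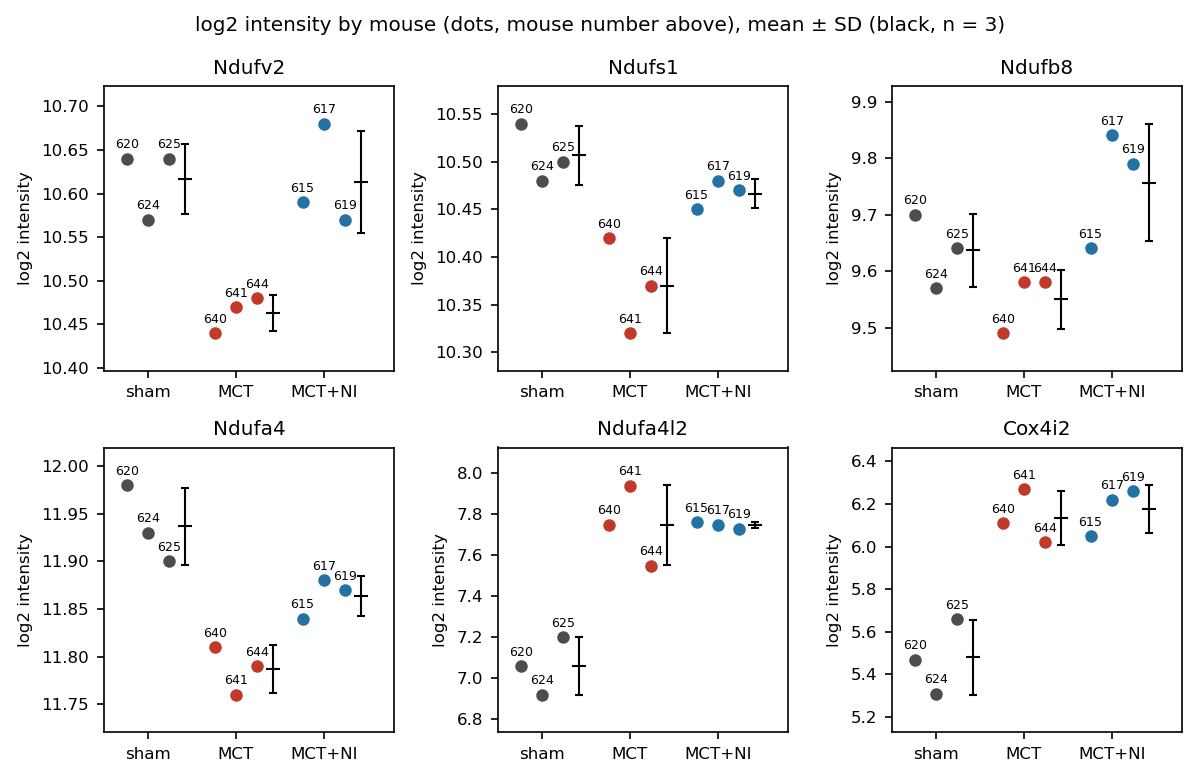
Dots are the log2 intensities of 6 genes in each mouse (mouse number above the dot), and black marks the group mean ± SD (n = 3), with a separate vertical scale for each gene. Ndufv2, Ndufs1 and Ndufa4 are lowest in the 3 MCT mice, Ndufb8 is highest in MCT+NI mice 617 and 619, and Ndufa4l2 and Cox4i2 are higher in all 6 mice given MCT than in any sham mouse.

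The nutritional intervention was compared with MCT alone to ask whether the diet altered the response of these genes. No member was called between MCT+NI and MCT, and no gene on the array was (0.0% of 18820 by limma, with 545 genes at an unadjusted p under 0.05). The family lay higher under the diet without passing that test. The median difference was 0.07, against -0.00 over all genes, with 41 members above 0 and 2 below. At an unadjusted p under 0.05, 11 members were higher, where 1.59% of all genes were, and 0 were lower, where 1.3% of all genes were. The 3 MCT+NI mice lay entirely above the 3 MCT mice for 13 members, against 3.11% of all genes, and entirely below for 0, against 2.96%. Without MCT+NI mouse 617 the 11 fell to 6, and without the intensity trend in limma's variance to 4. Without mouse 615 the median rose to 0.10. Since the MCT mice enter both this comparison and that with sham, the direction here is not independent of the lower values after MCT.

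Ndufv2 had the smallest p of the members. It was 0.15 higher in MCT+NI than in MCT (SE 0.037, 95% interval 0.07 to 0.23, limma adjusted p = 1), and its values in the 9 mice are given above. Ndufb8, a subunit at the far end of the membrane arm whose protein is widely used as a mark of assembled complex I, had the largest difference. It was 9.70, 9.57 and 9.64 in sham, 9.49, 9.58 and 9.58 in MCT and 9.64, 9.84 and 9.79 in MCT+NI mice. MCT+NI mice 617 and 619 exceeded every sham mouse, mouse 615 lay inside the sham range, and all 3 lay above the MCT mice. The difference from MCT was 0.20 (SE 0.058, 1.15-fold, limma adjusted p = 1).

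Ndufb5 and Ndufab1 showed the same order with smaller steps. Ndufb5, also of the distal membrane arm, was 10.12, 10.10 and 10.10 in sham, 10.02, 10.05 and 10.04 in MCT and 10.10, 10.14 and 10.17 in MCT+NI mice, a difference of 0.10 between the MCT groups. Ndufab1, the mitochondrial acyl carrier protein, was 10.49, 10.41 and 10.49 in sham, 10.35, 10.44 and 10.39 in MCT and 10.50, 10.47 and 10.52 in MCT+NI mice, a difference of 0.10. For both genes all MCT+NI mice lay above all MCT mice. Ndufb2 and Ndufs3, whose values stand above, were 0.17 and 0.11 higher under the diet. Ndufs1 (0.10), Ndufv3 (0.15), Ndufa4 (0.08), Ndufa10 (0.11) and Ndufa6 (0.13) completed the 11.

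By symbol group, the median difference between MCT+NI and MCT was 0.09 for Ndufa, 0.08 for Ndufb, 0.05 for Ndufc, 0.10 for Ndufs, 0.15 for Ndufv and 0.05 for Ndufaf genes. All 12 matrix-arm genes and all 18 membrane-arm genes lay above 0. The exceptions over the 43 genes were Ndufa4l2 and the assembly factor Ndufaf2, each at -0.00.

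Against sham, the MCT+NI mice differed little in the subunit genes. The member median was 0.01, against -0.02 over all genes, with 26 genes above 0 and 17 below, and it was -0.04 with arrays centred on the median, where all genes stood at -0.07. No member was called lower, where 1.75% of all genes were, and 1, Ndufa4l2, was called higher, where 4.52% of all genes were. At an unadjusted p under 0.05, 2 members differed in either direction, against 19.5% of all genes: Ndufa4l2 and Ndufa4 (-0.07, limma adjusted p = 0.199). The groups did not overlap for 4 members, against 21.0% of all genes. They were Ndufa4l2 and Ndufb9 on the higher side and Ndufa4 and Ndufc2 on the lower.

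Ndufv2 differed by 0.00 between MCT+NI and sham, with a 95% interval of -0.08 to 0.08. Ndufc2, by contrast, stayed below every sham mouse under the diet (-0.10, SE 0.0439, limma adjusted p = 0.274). Ndufb9 was 12.43, 12.36 and 12.41 in sham, 12.37, 12.43 and 12.42 in MCT and 12.44, 12.45 and 12.47 in MCT+NI mice, which were the highest 3 of the 9 by a narrow margin (0.06, SE 0.0284, limma adjusted p = 0.342). Ndufb3, a small subunit of the same distal arm, was 7.36, 7.49 and 7.47 in sham, 7.39, 7.55 and 7.44 in MCT and 7.45, 7.70 and 7.58 in MCT+NI mice. Its groups overlapped, and the difference from sham was 0.14 (SE 0.0726, limma adjusted p = 0.355).

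Complex I was set beside the other machines of oxidative phosphorylation. After MCT the median difference was -0.10 for the 8 genes of complex II, -0.08 for 8 of complex III, -0.06 for 14 of complex IV and -0.07 for 17 of the ATP synthase, with no gene of these lists called lower. The complex II list held the subunits Sdha, Sdhb, Sdhc and Sdhd, which ran from -0.15 to -0.10. It also held the assembly factors Sdhaf1, Sdhaf2, Sdhaf3 and Sdhaf4, which ran from -0.16 to 0.11. Ndufa4, which was called lower, was counted with the Nduf genes and not with complex IV. At an unadjusted p under 0.05, 3 of 8, 3 of 8, 3 of 14 and 7 of 17 were lower, against 9.14% of all genes. Examples are Sdha, the flavoprotein of complex II (-0.10, limma adjusted p = 0.0848), and Uqcrfs1, the Rieske iron-sulfur protein of complex III (-0.13, limma adjusted p = 0.0848). Under the diet the medians against MCT were 0.04 for complex II, 0.09 for complex III, 0.04 for complex IV and 0.04 for the ATP synthase. Complex III had 5 of 8 genes higher at an unadjusted p under 0.05, against 1.59% of all genes, among them Uqcrfs1 at 0.15 and Cyc1, its cytochrome subunit, at 0.17. Whether complex I differed from these complexes was not tested.

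**Figure D4:**
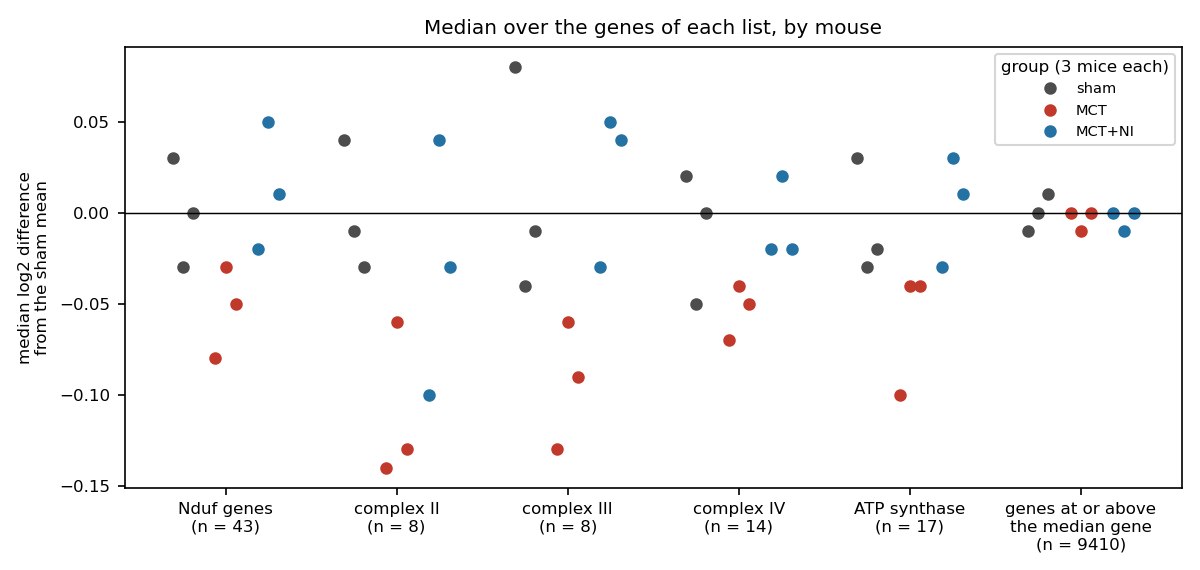
Each dot is 1 mouse and gives the median over the genes of a list of the log2 difference from the sham mean, for the 43 Nduf genes, the other complexes and the 9410 genes at or above the median gene, with n the number of genes. The MCT mice lie below 0 in each of the 5 respiratory lists (-0.14 at the lowest, in complex II), whereas all genes at or above the median gene stay between -0.01 and 0.01 in every mouse. The complex II list includes its assembly factors.

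Assembly factors with other names were measured for 12 of 13 genes written. All 12 were below 0 after MCT, with a median of -0.11, and 5 were lower at an unadjusted p under 0.05, against 9.14% of all genes, but none was called. They included Foxred1, an oxidoreductase-like factor (-0.16, limma adjusted p = 0.101), and Aifm1, a flavoprotein that serves the import of subunits (-0.14, limma adjusted p = 0.0843). Between MCT+NI and MCT the median was 0.03, with 8 above 0 and 4 below, and values ran from -0.21 for Nubpl to 0.16 for Foxred1. The 12 genes of iron-sulfur cluster assembly measured, which supply the cofactors of the matrix arm, had a median of -0.09 after MCT and of 0.01 between MCT+NI and MCT, with none called. Nfs1, the cysteine desulfurase, stood at -0.23 (limma adjusted p = 0.152).

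Among 15 regulators of mitochondrial genes, 2 were called lower and 1 higher after MCT. Esrrg, an estrogen-related receptor that drives oxidative genes in the heart, was 8.05, 7.95 and 7.84 in sham, 7.46, 7.78 and 7.50 in MCT and 7.46, 7.56 and 7.55 in MCT+NI mice. It fell by 0.37 in MCT (limma adjusted p = 0.0452) and by 0.42 in MCT+NI against sham (limma adjusted p = 0.0254). Its relative Esrrb fell by 0.27 in MCT (limma adjusted p = 0.0358). The coactivator gene Pprc1 rose by 0.31 (limma adjusted p = 0.0246).

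For Esrrg and Esrrb all 6 mice given MCT lay below all sham mice. Ppargc1a, the gene of the coactivator PGC-1α, was 10.26, 10.28 and 10.21 in sham, 10.02, 9.83 and 10.05 in MCT and 9.88, 10.09 and 10.09 in MCT+NI mice (-0.28 after MCT, limma adjusted p = 0.0564). Gabpb1, a subunit of GABP, was called higher in MCT+NI than in sham (0.28, limma adjusted p = 0.0248). Differences of these regulators between MCT+NI and MCT ran from -0.17 to 0.08.

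Across the 9 mice, the genes whose level followed the member median most closely, among 9367 other genes at or above the median gene, were Uqcr11 (Pearson r = 0.933), Fech (0.931), Sucla2 (0.926), Atp5l (0.925), Cox4i1 (0.923), Uqcrfs1 (0.919), Dlst (0.912), Ndrg4 (0.908), Tufm (0.906) and Coq9 (0.905). Uqcr11, Uqcrfs1, Atp5l and Cox4i1 encode parts of complexes III to V and Fech the last enzyme of haem synthesis. These correlations describe 9 arrays that carry both sides of each pair and the group differences with them. Of the members themselves, the median r with the member median was 0.70, 11 exceeded 0.8, and the values ran from -0.16 for Ndufa4l2 to 0.94 for Ndufs7.

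Several members had a further probe set or a near-identical copy in the genome. For 7 members the less bright probe set could be set beside the one used. After MCT the pairs read -0.10 and -0.12 for Ndufs3, -0.06 and -0.11 for Ndufb11, -0.07 and -0.06 for Ndufab1, and -0.04 and -0.03 for Ndufb4. They read -0.043 and -0.016 for Ndufc1 and -0.013 and -0.002 for Ndufa11. The exception in sign was Ndufb5, whose second probe set, under the median gene at 4.33, read 0.01 against -0.07. RefSeq lists close copies or pseudogenes of Ndufa11, Ndufa12, Ndufab1, Ndufb4, Ndufs5 and Ndufs6, and the values of these genes may include their copies.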

How the data were processed

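RNA from the right ventricle of 9 mice (100 ng each) was hybridised to Affymetrix whole-transcript arrays by the authors, who deposited log2 intensities made by RMA (background correction, quantile normalization and summary of probes) in 1 table of 35556 probe sets. Quantile normalization gives all arrays the same distribution, which would hide a change shared by most genes. Labels and methods of the study differ on the RNA kit and the start of the diets, and the labels were followed. Probe sets were named from the platform annotation: 21218 had 1 gene, 1881 several and 12457 none, which left 18820 genes, of which 1386 had several probe sets and were read from the brightest. In 12042 genes, 21 of the Nduf genes among them, some mice shared exactly the same deposited value.

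Differences were fitted with limma 3.58.1 (R 4.3.3) as 1 mean per group over all 9 mice, with moderated variances that follow intensity and Benjamini-Hochberg adjustment over 18820 genes. Samples are separate mice whose cage and litter are not given in the sources used here. The p-values set group differences against the spread between these mice, with variances moderated over all genes. Having 3 arrays per group limits the precision. The fit was tested on simulated data, with added changes larger than the differences of the complex I subunits given here. Recovery of differences as small as those was not tested. Written list symbols matched in 149 of 166 cases. The Nduf genes, lists and tests were chosen with earlier results of these data known. Values in every mouse are given for members called in any comparison, the 6 with the smallest p in each, the core subunits, Ndufa4 and Ndufa4l2. Alternatives were 22 per comparison, among them each of the 9 mice left out in turn. Setting aside Ndufa4 and Ndufa4l2, or keeping members at or above the median gene, only changed which members were counted in the same fit. Leaving out mice 644 and 615 together was chosen after seeing the data.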

Additional observations from a re-analysis of the deposited data

How the results depend on the processing

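No paired analysis was possible because the groups share no mouse number. For MCT against sham, the count of members called lower (2 as reported) was 0 without limma's intensity trend, 0 with quantile normalization repeated and 0 with the atrial mean as a covariate. It was 1 with probe sets of a gene averaged, 1 with all rows of the table fitted, 1 with only the 2 groups compared, 1 without mice 644 and 615 together and 1 when Ndufa4 and Ndufa4l2 were set aside, and it was 4 without dim genes and 6 with arrays centred on the median. Leaving out each mouse in turn gave 0 to 2. Centring also moved the member median to -0.127 and the count of members lower at an unadjusted p under 0.05 to 19, which ran from 6 to 13 with each mouse left out. Of all genes, 1470 were called in either direction with centring, against 1179 as reported. At an unadjusted p under 0.05 there were 4897 with centring, against 3714. With the atrial covariate the member median was -0.079, and 11 members were lower at an unadjusted p under 0.05. The count called higher was 0 with the atrial covariate and, by construction, 0 when Ndufa4l2 was set aside, both here and for MCT+NI against sham. For MCT+NI against MCT, the member median was 0.102 without mice 644 and 615 and 0.052 to 0.103 with each mouse left out, and the members higher at an unadjusted p under 0.05 numbered 4 without the trend and 6 to 14 with each mouse left out. For MCT+NI against sham the median was -0.043 with centring. No difference of a called member changed sign. The causes of these changes were not tested. With 3 arrays a group, differences near 0.1 on the log2 scale lay close to the spread between mice.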
